A study of Homo sapiens with 6 samples.

Results

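The genes DDIT4, SESN1, SESN2, SESN3, TXNIP, ARRDC3, ARRDC4 and DEPP1 encode inducible brakes on growth and metabolism and were followed in an oral squamous cell carcinoma cell line under hypoxia and normoxia. These 8 genes were taken by name from the 21776 genes of the deposited count table, and all 8 were found there. They were chosen by name with the measured difference between hypoxia and normoxia of these libraries in view, so their own differences are given as a description, without p-values, and the number of them called is given only beside the share called among all genes. RNA sequencing covered 6 libraries of the cell line SCC25, which is wild type per the labels, with 3 libraries under hypoxia (1% O2, 5% CO2 and N2 in a tri-gas incubator) and 3 under normoxia (5% CO2 in air), all for 12 h. The labels name SCC25, whereas a figure legend on this hypoxia response in the accompanying article names SCC9, another oral squamous line, and the labels were followed here. The cells came from an established human oral squamous cell carcinoma line kept in DMEM/F12 with serum, and nothing in the labels says whether the 3 libraries of a condition came from separate cultures, so the spread between them may be technical.

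The brakes act at different points. DDIT4 (also called REDD1) releases the TSC complex to switch off mTORC1, the kinase complex that drives protein synthesis and cell growth, and is a classical target of the hypoxia-inducible factors. The sestrins restrain mTORC1 through the GATOR complexes and sense leucine. SESN1 and SESN2 are also known as targets of p53, and SESN2 as a target of the stress factor ATF4. TXNIP, ARRDC3 and ARRDC4 are alpha-arrestins, adaptors that bring ubiquitin ligases to membrane proteins. TXNIP removes glucose transporters from the cell surface and binds thioredoxin, and both TXNIP and ARRDC4 are induced by the glucose-sensing factors MondoA and MLX. DEPP1 is a target of the FOXO transcription factors.

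The libraries held 29637189 to 37278703 counted reads. Levels are given as CPM, counts scaled to library size with TMM factors, for a gene across libraries, and as the deposited FPKM, which are per gene length, between genes. Of the 15 textbook hypoxia response genes used as a check of the labels, 15 rose under hypoxia (edgeR's quasi-likelihood test, Benjamini-Hochberg adjusted p-value under 0.05), as did 39.2% of the 14255 genes tested. This list, too, was chosen with earlier results of these data known. The list of epithelial markers held KRT5, KRT6A, KRT17, TP63, SFN, DSG3, DSC3, CDH1, EPCAM and KRT14. Among them CDH1 and EPCAM mark epithelium in general and are not particular to squamous cells. The whole list summed to 924, 936 and 982 CPM in normoxia replicates 1 to 3. In hypoxia replicates 1 to 3 it summed to 1097, 1071 and 1087 CPM. Per length the same sum was lower under hypoxia, at 477, 470.0 and 482 FPKM in normoxia and 443, 430.1 and 431 FPKM in hypoxia. Of the 9 tested, 4 were higher and 4 lower. CDH1 rose from 188 to 479 CPM, more than the whole CPM sum did. On the log2 scale DSG3 rose by 1.35, KRT17 by 1.06 and DSC3 by 0.96, while KRT6A fell by 4.12, SFN by 0.80, EPCAM by 0.35 and KRT5 by 0.18. KRT5 lost its call without hypoxia replicate 2 (log2-fold change -0.15). EPCAM was the most abundant of them per length in every library, and KRT14 had at most 1 count in any library, so that this keratin of basal squamous cells was not detected. Markers of leukocytes, endothelium and fibroblasts summed to 5.19, 4.19 and 7.94 CPM in normoxia and to 29.02, 25.2 and 24.1 CPM in hypoxia, over the 11 of 12 listed genes found in the table, and of 4 tested 3 were higher under hypoxia (CD14, COL1A1 and CDH5). CDH5 lost its call without hypoxia replicate 1 or 3 (log2-fold change 1.06 in both) and without normoxia replicate 1 (0.82) or 2 (0.97). The most abundant of these per length was COL1A1 or CD14, and PTPRC and CD3E, which define leukocytes, had 0 counts in all normoxia libraries and at most 2 in any hypoxia library. The part of these markers in the values below was not tested.

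DDIT4 was the most abundant of the brakes under hypoxia. Its levels were 133, 118 and 199 CPM in normoxia replicates 1 to 3 and 1945, 2007 and 2062 CPM in hypoxia replicates 1 to 3. Every hypoxia library lay far above every normoxia library, with a log2-fold change of 3.74 (SE, the standard error of the fit, 0.13), or 13.4-fold. The normoxia libraries were spread widely, with a coefficient of variation of 28.7%, whereas the hypoxia libraries differed by 2.92%. Normoxia replicate 3 was the highest of its condition, and without it the log2-fold change was 3.98. By deposited FPKM, DDIT4 moved from position 720 to position 50 among all 21776 genes. As these are bulk libraries, a change in every cell and a change in a part of the cells cannot be told apart, here or for the genes below. DDIT4 shares 847 exonic bases on the opposite strand with DDIT4-AS1 in GENCODE v29, a gene that is not in the count table, and since it is not stated whether the counting used the strand, reads from it could be included.

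The sestrins differed among themselves. SESN1 had 8.03, 8.77 and 8.42 CPM in normoxia and 12.2, 13.7 and 14.9 CPM in hypoxia. All hypoxia libraries were above all normoxia libraries, with a log2-fold change of 0.69 (SE 0.11). SESN2, the sestrin best known from ATF4 responses, had 16.4, 16.1 and 15.04 CPM in normoxia and 14.0, 15.6 and 17.0 CPM in hypoxia. Here the conditions overlapped, and the log2-fold change of -0.026 had a 95% interval from -0.23 to 0.18. SESN3 was at the edge of detection, with 4, 3 and 0 counts in normoxia and 8, 7 and 2 counts in hypoxia, and it did not pass the filter on low counts, so no fold change was fitted. Of the 8 genes, 7 passed this filter. Summed over the 3 sestrins, the level was 24.5, 24.95 and 23.5 CPM in normoxia and 26.4, 29.5 and 31.96 CPM in hypoxia, and the hypoxia libraries were above the normoxia libraries here too. SESN1 shares 363 exonic bases and SESN3 93 with genes on the opposite strand that are not in the table.

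Among the alpha-arrestins, TXNIP and ARRDC3 were higher under hypoxia and ARRDC4 was level. TXNIP had 191, 207 and 221 CPM in normoxia and 490, 508 and 504 CPM in hypoxia. The conditions were well apart, with a log2-fold change of 1.28 (SE 0.057) and a coefficient of variation under hypoxia of 1.95%. ARRDC3, which is known for the turnover of adrenergic receptors and integrins, had 30.8, 35.02 and 33.9 CPM in normoxia and 212, 261 and 250.2 CPM in hypoxia. Its log2-fold change was 2.86 (SE 0.078), or 7.26-fold, again without overlap. ARRDC4, the closest relative of TXNIP in its regulation by glucose, had 41.8, 38.5 and 39.6 CPM in normoxia and 41.2, 42.7 and 40.7 CPM in hypoxia. These ranges overlapped, and the log2-fold change of 0.053 (95% interval from -0.080 to 0.19) does not reach the difference of 1.28 given for TXNIP. ARRDC3 shares 145 exonic bases with ARRDC3-AS1 on the opposite strand, which had 17 to 45 counts in any library against at least 1002 for ARRDC3. TXNIP, ARRDC4 and SESN2 share no exonic bases with another gene in GENCODE v29. The other alpha-arrestins of the list found in the table were ARRDC2 and ARRDC1. ARRDC2 was higher, at 17.4 against 10.4 CPM (log2-fold change 0.74, SE 0.13), and ARRDC1 was lower, at 46.9 against 53.7 CPM (log2-fold change -0.20, SE 0.060). Both passed an adjusted p-value of 0.05 by edgeR's quasi-likelihood test, and ARRDC1 did not when at least 10 counts were required in every library (adjusted p = 0.0723 in edgeR's quasi-likelihood test, the highest over its alternatives).

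DEPP1 was near silent in normoxia and abundant under hypoxia. Its counts were 15, 4 and 25 in normoxia and 3034, 4868 and 4265 in hypoxia. This corresponds to 0.40, 0.14 and 0.85 CPM in normoxia and 99.4, 131 and 131 CPM in hypoxia, a log2-fold change of 8.02 (SE 0.20). With so few reads in normoxia the size of the change rested on single libraries there, and it was 8.67 without normoxia replicate 3 and 7.63 without normoxia replicate 2. Among the 14255 genes tested, 3 had a larger log2-fold change. DEPP1 shares 695 exonic bases with RASSF4 on the opposite strand. RASSF4 had 33, 13 and 31 counts in normoxia, more than DEPP1 in each library, and 361, 648 and 561 counts in hypoxia, fewer than DEPP1 in each. Per length, RASSF4 had 0.22 ± 0.085 FPKM in normoxia and 4.34 ± 0.91 FPKM in hypoxia (SD, n = 3), against 0.22 ± 0.17 and 57.8 ± 9.02 FPKM for DEPP1 (SD, n = 3). Reads of these genes in the shared bases cannot be told apart without strand, and this bears most on the normoxia level of DEPP1, which sets the size of its fold change.

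**Figure D1:**
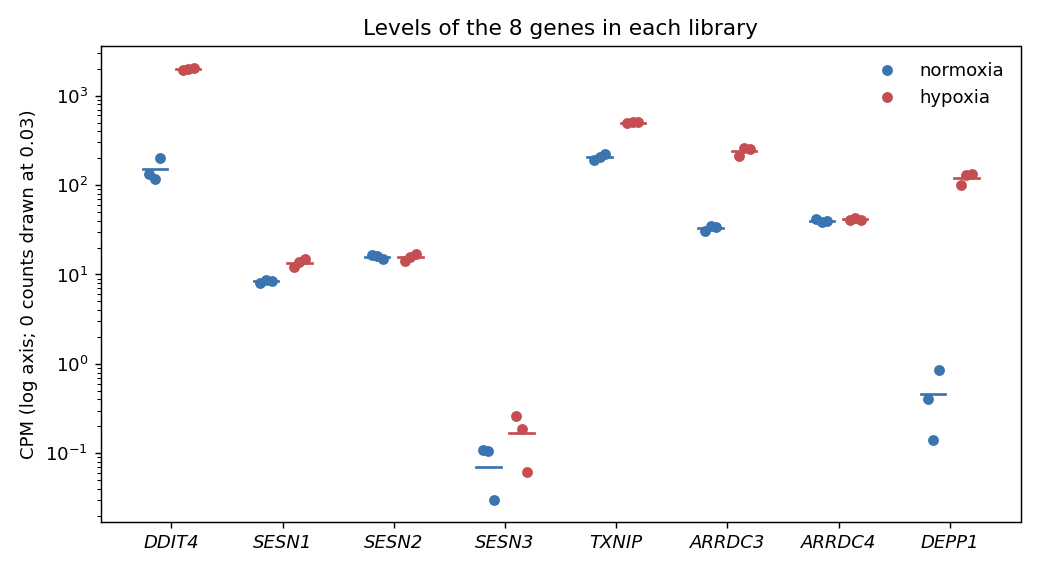
CPM of the 8 genes in each of the 3 normoxia and 3 hypoxia libraries (points; bars are means, log axis, a library with 0 counts is drawn at 0.03). DDIT4, TXNIP, ARRDC3, SESN1 and DEPP1 are separated between the conditions, while SESN2, SESN3 and ARRDC4 overlap.

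Of the 7 genes that passed the filter, 5 were called higher in edgeR's fit and 0 lower, in a comparison that called 77.8% of all tested genes and 39.2% higher. Of the 7, 4 were called higher with a log2-fold change over 1, as were 19.9% of all tested genes. The same 5 had every hypoxia library above every normoxia library, beside 40.6% of tested genes with that order and 80.5% without overlap in either direction. Because the 8 genes were chosen with this contrast in view, nothing is read from these shares. The log2-fold changes of the 14255 genes had a median of 0.023, the 5th percentile -1.33 and the 95th percentile 2.61. DEPP1, DDIT4 and ARRDC3 lay beyond the 95th percentile, and SESN2 and ARRDC4 lay near the median.

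The order of the genes by level also shifted. Per gene length, DDIT4 had 84.7 ± 24.7 FPKM and TXNIP 61.4 ± 4.22 FPKM in normoxia (SD, n = 3), and their ranges overlapped slightly. ARRDC4 followed with 9.69 ± 0.57 FPKM, ARRDC3 with 6.68 ± 0.34 FPKM and SESN2 with 4.50 ± 0.22 FPKM (SD, n = 3), each apart from its neighbour. SESN1 with 1.36 ± 0.037 FPKM, DEPP1 with 0.22 ± 0.17 FPKM and SESN3 with 0.0070 ± 0.0060 FPKM (SD, n = 3) closed the order. Under hypoxia DDIT4 stood alone at 1168 ± 34.3 FPKM, above TXNIP at 154 ± 4.35 FPKM (SD, n = 3). DEPP1 at 57.8 ± 9.02 FPKM and ARRDC3 at 50.1 ± 5.69 FPKM (SD, n = 3) came next and overlapped with each other. ARRDC4 at 10.4 ± 0.40 FPKM, SESN2 at 4.56 ± 0.44 FPKM, SESN1 at 2.26 ± 0.22 FPKM and SESN3 at 0.017 ± 0.010 FPKM (SD, n = 3) were again apart from their neighbours. The 8 genes together summed to 148 to 201 FPKM in the normoxia libraries and to 1386 to 1481 FPKM in the hypoxia libraries. DDIT4 made up 44.2% to 56.0% of that sum in normoxia and 80.1% to 81.4% in hypoxia, so the hypoxic set was dominated by this gene.

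**Figure D2:**
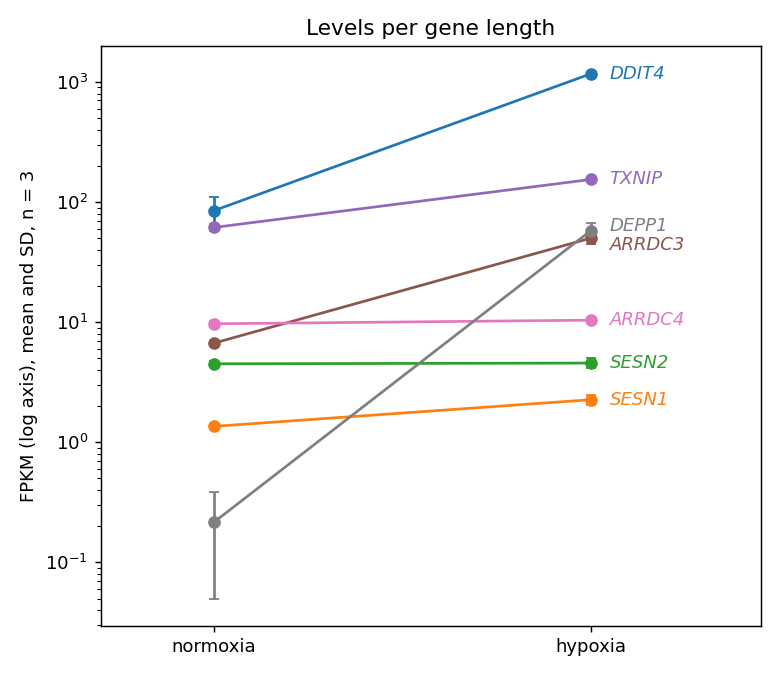
Deposited FPKM (log axis; mean and SD, n = 3 libraries per condition) of 7 genes in normoxia and hypoxia, with SESN3 left out because of its level near 0. DEPP1 crosses SESN1, SESN2, ARRDC4 and ARRDC3, and DDIT4 draws away from TXNIP.

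To set the sequences before these genes beside their levels, the 250 bases upstream of each RefSeq transcription start (GRCh38.p14) were searched on both strands for short motifs of the factors named above. All 8 genes had a window, with 12 starts between them. The motifs were the core of the hypoxia response element (ACGTG or GCGTG), the E-box CACGTG, which contains ACGTG on both strands, the carbohydrate response element bound by MondoA and ChREBP with MLX (here 2 copies of CACGNG with 5 bases between them), the FOXO site GTAAACA and the ATF4 composite site TGATGCAA. The windows of 4 genes are printed because they hold most of the matches, with matched bases in capitals and bases at N in lower case.
DDIT4 (chr10:72273674-72273923, + strand): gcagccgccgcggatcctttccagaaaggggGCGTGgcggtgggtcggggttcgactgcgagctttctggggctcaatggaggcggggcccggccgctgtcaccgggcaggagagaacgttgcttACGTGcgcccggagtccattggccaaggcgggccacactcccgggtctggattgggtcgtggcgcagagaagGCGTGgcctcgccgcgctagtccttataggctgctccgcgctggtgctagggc
TXNIP (chr1:145996580-145996829, - strand): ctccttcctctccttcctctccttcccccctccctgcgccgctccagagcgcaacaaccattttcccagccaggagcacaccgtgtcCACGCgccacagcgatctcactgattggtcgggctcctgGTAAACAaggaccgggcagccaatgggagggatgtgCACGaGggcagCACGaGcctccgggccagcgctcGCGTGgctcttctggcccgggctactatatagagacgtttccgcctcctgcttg
ARRDC4 (chr15:97960453-97960702, + strand): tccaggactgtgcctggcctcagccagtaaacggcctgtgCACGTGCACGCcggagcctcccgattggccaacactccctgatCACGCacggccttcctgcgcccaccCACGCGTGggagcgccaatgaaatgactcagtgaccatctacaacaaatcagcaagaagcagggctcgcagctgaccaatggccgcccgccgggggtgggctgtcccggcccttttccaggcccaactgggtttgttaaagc
DEPP1 (chr10:44978810-44979059, - strand): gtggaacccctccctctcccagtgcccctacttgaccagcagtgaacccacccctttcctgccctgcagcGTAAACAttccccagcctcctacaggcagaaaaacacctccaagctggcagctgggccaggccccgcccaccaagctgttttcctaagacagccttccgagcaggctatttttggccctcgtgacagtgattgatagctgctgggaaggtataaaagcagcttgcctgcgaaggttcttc
The DDIT4 window holds ACGTG from position -125 and GCGTG from positions -219 and -53, counted from the transcription start. TXNIP carries the carbohydrate response element at -88 to -72, together with a FOXO site at -124 to -118 and GCGTG cores at -163 and -54, and its other window holds ACGTG at -162. In the form searched, the carbohydrate response element was found in 16 of 35116 windows of the RefSeq table, or 0.0456%, and in no other window of the 8 genes. Looser forms of it, and bases farther upstream, were not searched. ARRDC4, level between the conditions, holds an E-box at -210 to -205 and 4 GCGTG cores. DEPP1 holds the FOXO site at -180 to -174 and no HIF core in this window. A FOXO site was also found at -29 to -23 in the ARRDC3 window at chr5:91380098-91380347 (- strand) and GCGTG at -82 in a SESN1 window, while the SESN2 and SESN3 windows had no match. Among all windows, ACGTG was found in 18.5%, GCGTG in 32.2%, the E-box in 6.34%, the FOXO site in 2.98% and the ATF4 site in 0.772%. The cores of the hypoxia response element are thus common and were present before ARRDC4 as well as before DDIT4. A match describes letters in the window and says nothing of binding.

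**Figure D3:**
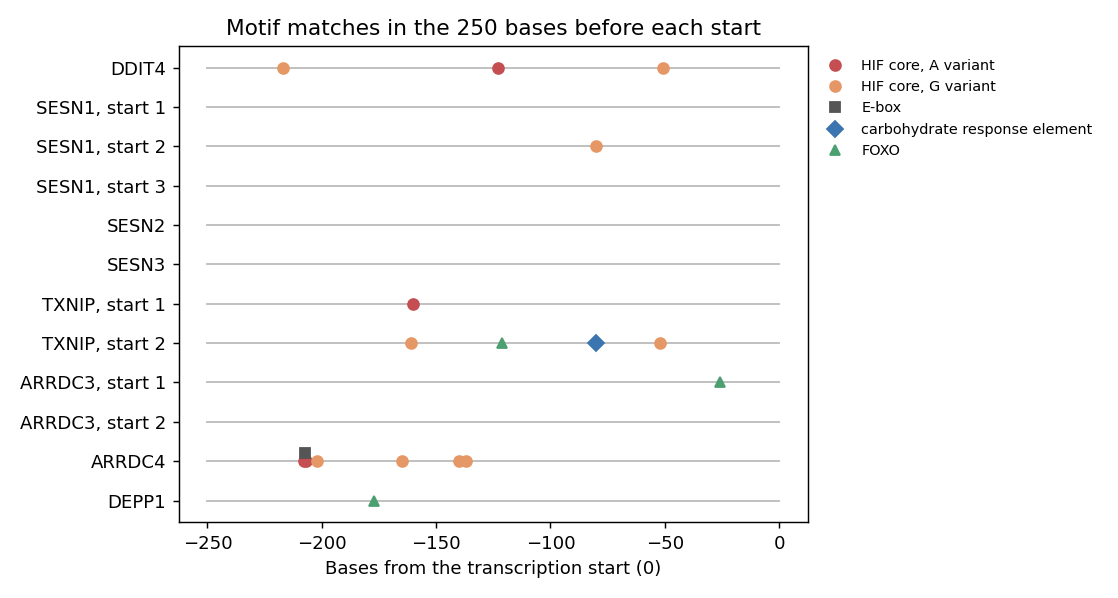
Positions of motif matches in the 250 bases before each of 12 RefSeq starts of the 8 genes (x axis, bases from the start at 0; starts of a gene numbered by coordinate). TXNIP has the only match to the carbohydrate response element in the form searched, and ARRDC3, TXNIP and DEPP1 each have a FOXO site.

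The deposited GO annotation ties the genes into subgroups. SESN1, SESN2 and SESN3 carry "cellular response to leucine starvation", a term given to 13 of 15442 annotated genes, "regulation of response to reactive oxygen species", given to 3 genes, and "negative regulation of TORC1 signaling", given to 45. ARRDC3 and ARRDC4 carry "positive regulation of ubiquitin-protein transferase activity", given to 14 genes. DDIT4, SESN2 and DEPP1 carry "mitochondrion", given to 1269 genes. All 8 carry "cytoplasm", as do 28.8% of annotated genes, and no other term was carried by all 8.

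The profile of each gene over the 6 libraries was compared with those of 11573 genes, as the root mean square difference of log2 CPM after centring each gene. For DDIT4 the most alike were NRN1 (difference 0.084), ULK1 (0.092) and SYNPO (0.098). ARRDC3 was closest to PHF21A (0.077), ETS2 (0.083) and SYT7 (0.091), and TXNIP to SORCS2 (0.025), WDTC1 (0.029) and TRPT1 (0.031). The profile of SESN1 was followed most closely by TCTN1 (0.033), AKAP10 (0.044) and DRAM2 (0.046). For DEPP1 no gene came within 0.1, and the nearest were CYP26A1 (0.58), LINC02940 (0.64) and EGLN3 (0.68). SESN2 was closest to NDUFB5 (0.017), ELF1 (0.019) and TRAF3IP2 (0.042) and ARRDC4 to ING2 (0.0083), WBP1L (0.013) and ARHGAP23 (0.019), among 444 and 1090 genes within 0.1. Within 0.1 there were 3 genes for DDIT4, 6 for ARRDC3, 121 for TXNIP and 150 for SESN1. SESN3 was too low for this comparison. All profiles include the difference between the conditions, so likeness here is mainly a like fold change.

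The genes around the brakes were then counted in lists set by function. Each gene was tested by edgeR's quasi-likelihood test with an adjusted p-value under 0.05. The counts are given beside the 39.2% of all genes that were higher and the 38.5% that were lower. The lists were chosen with earlier results of these data known, so their counts and medians are a description, and the lists were not tested as sets. In the TSC and mTOR list, on which DDIT4 and the sestrins act, 3 of 9 tested genes were higher and 6 lower, with a median log2-fold change of -0.40. TSC1 and TSC2, the subunits of the complex that restrains mTORC1, rose by 0.75 (SE 0.065) and 0.33 (SE 0.054) on the log2 scale, as did RICTOR, the defining subunit of mTORC2, by 0.95 (SE 0.077). The kinase MTOR fell by 0.59 (SE 0.053), from 179 ± 6.48 to 119 ± 3.95 CPM (SD, n = 3). RPTOR, MLST8 and AKT1S1, the other subunits of mTORC1 tested, and RHEB, its activator, fell by 0.40, 0.52, 0.55 and 0.32 on the log2 scale. MAPKAP1, a subunit of mTORC2, fell by 0.75. TBC1D7 and DEPTOR were too low to be tested.

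The list of GATOR, KICSTOR and amino acid sensors, through which the sestrins work, split in both directions, with 5 of 16 higher, 8 lower and a median log2-fold change of -0.24. The GATOR2 subunits SEH1L, SEC13 and MIOS fell by 1.55 (SE 0.089), 0.76 (SE 0.061) and 0.62 (SE 0.058) on the log2 scale, WDR24 fell by 0.39 and WDR59 rose by 0.39. SEH1L and SEC13 are also subunits of the nuclear pore. CASTOR1, an arginine sensor, rose from 0.75 to 4.79 CPM (log2-fold change 2.66, SE 0.26), and BMT2, the S-adenosylmethionine sensor SAMTOR, from 8.53 to 28.5 CPM (1.74, SE 0.10). The KICSTOR genes KICS2, ITFG2 and KPTN fell by 1.23, 0.89 and 0.75. The number lower ran from 7 to 10 over the alternatives. DEPDC5 of GATOR1 (log2-fold change -0.27, SE 0.12) lost its call in 7 of them, among them the fits without hypoxia replicate 2 (-0.16) and without normoxia replicate 1 or 2 (-0.26 in both).

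Among the AMPK genes, which sense low energy, 2 of 11 were higher and 4 lower, with a median log2-fold change of -0.036. The upstream kinase gene CAMKK2 fell from 76.6 to 38.5 CPM (log2-fold change -0.99, SE 0.071), while STK11, the other upstream kinase, had a log2-fold change of 0.027 (SE 0.060). Of the beta subunits PRKAB2 rose by 0.77 and PRKAB1 fell by 0.43, and the catalytic subunit PRKAA1 and the gamma subunit PRKAG2 fell by 0.26 and 0.27. PRKAG3, with 0, 0 and 1 counts in normoxia and 32, 43 and 44 in hypoxia, was at least 12.4-fold higher (against 3 counts per normoxia library). The list's median was the same with PRKAG3 at this bound. PRKAA2 was too low to be tested.

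Of the mTORC1 substrates, 3 of 9 were higher and 5 lower. The weakest of the lower calls, EIF4EBP1 (log2-fold change -0.13, SE 0.055), was lost in 8 of 11 alternatives, which left 4 lower. Among them were DESeq2 and the fits without hypoxia replicate 2 or 3 (-0.12 and -0.13) or normoxia replicate 1 or 2 (-0.12 in both). With at least 10 counts in every library the call of EIF4EBP1 was also lost, and its log2-fold change was -0.050. ULK1, the kinase that starts autophagy when mTORC1 is off, rose from 16.5 ± 4.21 to 206 ± 9.21 CPM (SD, n = 3), a log2-fold change of 3.64 (SE 0.11, adjusted p = 3.75e-14 in edgeR's quasi-likelihood test). It was higher in 3 of 3 hypoxia libraries. Its profile was 1 of the 3 most like that of DDIT4. ULK2, its paralog, had a log2-fold change of -0.17 (SE 0.11) and did not pass the threshold. TFEB, a lysosomal transcription factor, rose from 1.76 to 4.58 CPM, and its relative TFE3 fell by 0.39 on the log2 scale. The S6 kinase genes RPS6KB1 and RPS6KB2 fell by 0.61 and 0.48.

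The partners of the alpha-arrestins were mostly lower. All 7 tested ubiquitin ligases of the NEDD4 family were lower, with a median log2-fold change of -0.41, and ranged from NEDD4, which fell by 0.95 (SE 0.054), to ITCH, which fell by 0.19 (SE 0.052) and lost its call when at least 10 counts were required in every library (adjusted p = 0.0649 in edgeR's quasi-likelihood test, the highest over its alternatives). HECW1 and HECW2 were too low to be tested. In the thioredoxin system 2 of 9 were higher and 6 lower, with a median of -0.42. TXN, the thioredoxin that TXNIP binds, fell from 334 ± 13.3 to 149 ± 14.3 CPM (SD, n = 3), a log2-fold change of -1.16 (SE 0.065). TXNRD1, the cytosolic thioredoxin reductase, fell further, from 941 ± 82.4 to 189.6 ± 15.1 CPM (SD, n = 3), with a log2-fold change of -2.31 (SE 0.070). Mitochondrial TXN2 had a log2-fold change of -0.049 (SE 0.055), and of the glutaredoxins GLRX rose from 5.03 to 20.4 CPM while GLRX2 fell from 9.61 to 3.49 CPM (log2-fold change -1.47, SE 0.18). The glucose-sensing factors themselves were unequal. MLXIP, which encodes MondoA, fell by 0.54 (SE 0.054) and MLX by 0.39 (SE 0.059), whereas MLXIPL, which encodes ChREBP, rose from 1.13 to 12.4 CPM (log2-fold change 3.48, SE 0.21).

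The 4 programmes known to induce some of the brakes were read in the same way. The FOXO list had 11 of 15 genes higher and 2 lower, with a median log2-fold change of 0.94. FOXO3, FOXO4 and FOXO6 rose by 1.13, 1.68 and 2.72 on the log2 scale, and FOXO1 had a log2-fold change of -0.14 (SE 0.19). The targets BCL6, CCNG2 and IRS2 rose by 3.10 (SE 0.21), 2.76 (SE 0.11) and 2.75 (SE 0.12), SOD2 stood at 0.020 (SE 0.056), and GADD45A fell by 1.28 (SE 0.12). FBXO32, at 0.13 (SE 0.052), lost its call without hypoxia replicate 1 (0.10) or 3 (0.12) and without normoxia replicate 1 (0.12) or 2 (0.095). The other gene that was lower, KLF2, lost its call without normoxia replicate 3 (log2-fold change -0.89, adjusted p = 0.075 in edgeR's quasi-likelihood test, the highest over its alternatives). The glucocorticoid list had 5 of 5 tested genes higher, with a median of 2.15, led by TSC22D3, also called GILZ, which rose from 3.96 to 46.8 CPM (log2-fold change 3.56, SE 0.13). The phosphatase gene DUSP1 rose by 2.15 and the clock gene PER1 by 1.40, while FKBP5, among the most widely used glucocorticoid targets, had a mean of 0.0090 CPM in normoxia and 0.031 CPM in hypoxia and was too low to be tested.

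The p53 list had 7 of 18 genes higher and 6 lower, with a median log2-fold change of 0.016. GDF15, BTG2 and MDM2 rose by 2.38, 1.56 and 1.02, and AEN and BAX fell by 2.42 and 1.07. Over the alternatives 5 to 8 were higher and 5 to 7 lower. PHLDA3 and ZMAT3 each lost their calls in at least 4 of them. The ATF4 list had 2 of 12 higher and 7 lower, with a median of -0.41. ATF4 itself had a log2-fold change of 0.078 (SE 0.050) and passed the threshold only with at least 10 counts in every library (0.16, adjusted p = 0.0082 in edgeR's quasi-likelihood test, and up to 0.57 over its alternatives). SLC7A11, the cystine transporter, fell from 113 ± 6.12 to 11.4 ± 0.340 CPM (SD, n = 3), with a log2-fold change of -3.31 (SE 0.068), ATF5 fell by 2.02, PSAT1 by 1.39 and TRIB3 by 0.44, whereas ATF3 rose by 1.54 and PHGDH by 0.68. SESN2 and DDIT4, both known as ATF4 targets, were at log2-fold changes of -0.026 and 3.74.

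**Figure D4:**
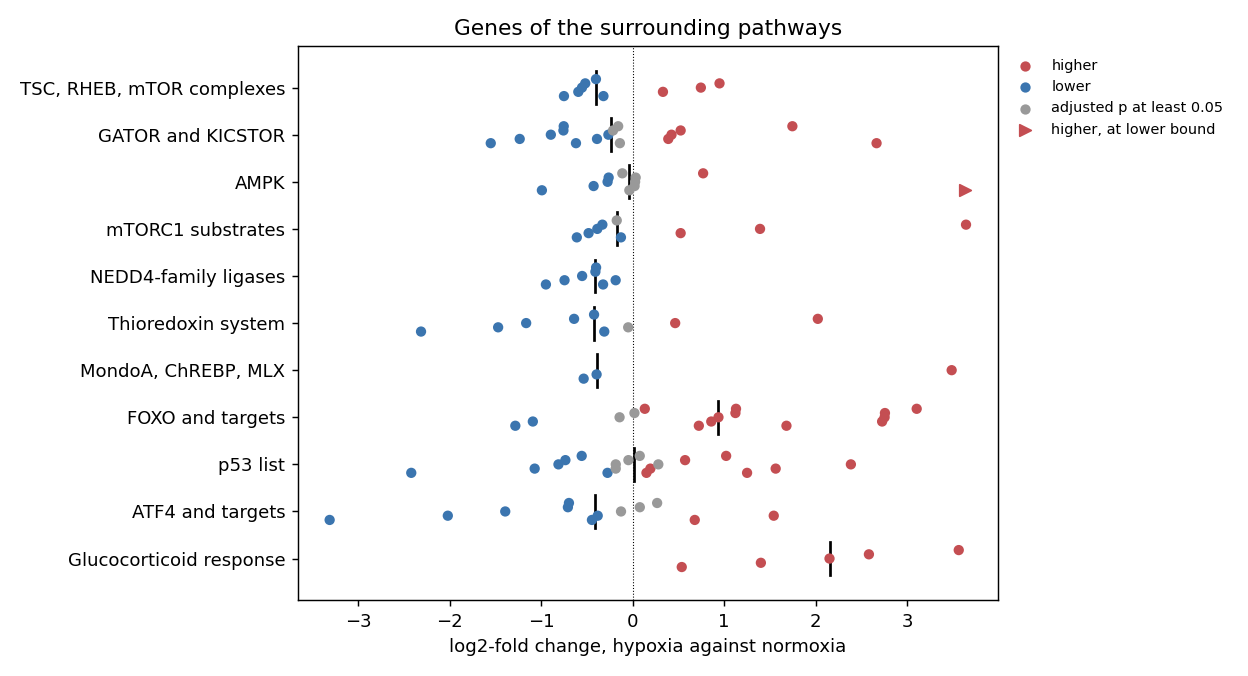
Log2-fold change of each tested gene in 11 lists (points; black bars are list medians; red, higher and blue, lower at an adjusted p-value under 0.05 by edgeR's quasi-likelihood test; the triangle is PRKAG3 at its lower bound). The medians run from -0.42 for the thioredoxin system to 2.15 for the glucocorticoid list, beside 0.023 over all tested genes.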

How the data were processed

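RNA was sequenced from 6 SCC25 libraries made with a SMARTER mRNA-Seq kit per the labels. The authors deposited 1 table of raw read counts per gene and 1 of FPKM values, scaled to gene length and library size. The aligner and the strand setting are not given in the sources used here. The submitters' processing notes name the mouse builds GRCm38 and mm10, although the gene symbols and identifiers in the table are human, and this was not resolved. Counts were tested in edgeR 4.0.16 (R 4.3.3) by the quasi-likelihood test with TMM scaling after filterByExpr, which left 14255 of 21776 genes, with Benjamini-Hochberg adjustment at 0.05. The total per library was 29637189 to 37278703, and 3 counts correspond to 0.0807 to 0.105 CPM. DESeq2 1.42.0, other filters, a replicate block and leaving out each library were alternatives. The script was tested on simulated data. The members and lists were chosen with earlier results of these data known. Genes named in the text are those of the lists and, for each member, the 3 most alike profiles. Some listed genes are counted but not reported by name here.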

Additional observations from a re-analysis of the deposited data

How the results depend on the processing

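Over other normalizations, tests and filters, 4998 to 6134 genes were higher and 4969 to 5786 lower, and leaving out 1 library at a time gave 5328 to 5770 higher and 5341 to 5620 lower. No listed gene past the threshold changed direction, while values near 0 did: SESN2 had a log2-fold change of 0.052 under a floor of 10 counts for each library and 0.037 without hypoxia replicate 1, and CAB39, ELF1, NDUFB5, PRKAG1, SOD2, STK11, STRADB, TP53I3, TRAF3IP2, TXN2 and WBP1L, none of them called, also crossed 0 under some alternatives. Under that floor, ARRDC4 had a log2-fold change of 0.13, the alpha-arrestin paralogs had 0 genes lower and the AMPK list had 1 gene higher, and DEPP1 and PRKAG3 could not be fitted. That filter moved the log2-fold changes of shared genes by a median of 0.0775. Without a filter, 5 markers of other cell types were higher. Leaving out 1 library at a time, the FOXO list had 1 to 2 genes lower. Of 1799 values of 164 listed genes under the alternatives, 47 lost and 16 gained a call, in 20 genes. No pairing by replicate number was seen, as deviations of same-numbered libraries correlated at 0.018, -0.069 and 0.0012. Those of differently numbered libraries correlated at -0.069 to 0.066. These values cannot show whether same-numbered libraries were handled together. With the replicate block, 5456 genes were higher and 5419 lower. Groups of 3 cannot go below p = 0.10 in an exact permutation test, so tests rest on the spread pooled over genes. Depth limits SESN3 and the normoxia level of DEPP1.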

Other observations

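The normoxia libraries differed in the level of hypoxia response genes. Of the 15 genes used as a check of the labels, 13 were highest in normoxia replicate 3 and 11 were lowest in normoxia replicate 2, against 5302 and 4860 of all 14255 genes tested. DDIT4 and DEPP1 had the same order, with 199 and 0.85 CPM in normoxia replicate 3 and 118 and 0.14 CPM in normoxia replicate 2. Of the other brakes, TXNIP was also highest in normoxia replicate 3 and ARRDC4 also lowest in normoxia replicate 2.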
